A study of Mus musculus with 9 samples.

Results

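The Id family (Id1, Id2, Id3 and Id4) was followed through 9 RNA-seq libraries of mouse 4T1 mammary tumors. The members were the 4 genes carrying these symbols among 22609 listed genes, and they were selected on their normalised counts in the study's 3 groups, which were already known. Their levels and differences are therefore given as a description, with no test. Within the high-fat diet, EC359 tumors held 1.49-fold less Id3, 1.2-fold less Id1 and 1.53-fold more Id2 than vehicle tumors, while the difference in Id4 was 0.01 on the log2 scale with a 95% interval from -0.42 to 0.44. The groups were tumors from mice on a low-fat diet (LFD), tumors from mice on a high-fat diet (HFD), and tumors from mice on the high-fat diet that received EC359 (HFD + EC359), with 3 libraries each. The low-fat diet drew 10% of its energy from fat and the high-fat diet 60%. After 6 weeks on diet, 500000 cells in 100 μL were placed in the mammary fat pad of BALB/c hosts. Tumors of the LFD and HFD groups were grown under vehicle, 0.3% hydroxy propyl cellulose, and those of the third group under EC359, an inhibitor of the leukemia inhibitory factor receptor (LIFR), at 5 mg/kg on 5 days a week by intraperitoneal injection. No group received EC359 on the low-fat diet. 4T1 is a single mouse line of triple-negative breast cancer, its BALB/c hosts keep their own immune system, and each library is bulk tumor RNA holding host cells as well. A lower level in bulk RNA can come from fewer cells of a type or from less RNA per cell, and these cannot be told apart here. The labels do not state that replicates came from separate animals, so the spread given here is that between libraries.

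Id proteins carry a helix-loop-helix (HLH) domain but lack the basic region with which related factors grip DNA. They bind the ubiquitous E proteins Tcf3, Tcf4 and Tcf12 and keep them from pairing with tissue-specific basic HLH (bHLH) factors, which holds cells in a dividing, less differentiated state. Bone morphogenetic proteins (BMPs) acting through SMAD factors are the textbook inducers of Id1, Id2 and Id3, and LIF acting through STAT3 is known to raise Id genes in some cells. In tumors, Id1 and Id3 are known from vessels as well as from carcinoma cells. The study measured LIFR target genes by RT-qPCR in human breast cancer cells, and its primer list holds ID1 and ID2. That list does not mark which of its genes are LIFR targets. Those other than reference genes are called the LIFR target panel here.

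Id1, on chromosome 2, spans chr2:152562010-152563146 on the plus strand of mm9, with 2 exons of 911 bases in all. Id2 spans chr12:25778664-25780957 on the minus strand, with 3 exons of 1272 bases. Id3 spans chr4:135699737-135701307 on the plus strand, with 3 exons of 953 bases. Id4 spans chr13:48356796-48359405 on the plus strand, with 3 exons of 1660 bases. No exon of the 4 genes overlapped an exon of another gene on either strand. The exons of Id1 and Id3 had the same GC content, 55.8%, whereas Id2 had 42.4% and Id4 48.8%. This bears on the comparisons below, because low-GC genes read higher against high-GC genes in the HFD libraries than in the LFD libraries.

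The promoters of the members are shown because the family did not move as a block, with Id2 higher and Id3 lower under EC359. Promoter windows from RefSeq matched 3 of the 4 members, Id2, Id3 and Id4. Each line gives the 250 bases upstream of the RefSeq start, 5′ to 3′ on the gene's strand, in GRCm38.p6 coordinates, a build other than mm9. The windows are chr12:25096093-25096342 on the minus strand for Id2, chr4:136143572-136143821 on the plus strand for Id3 and chr13:48260866-48261115 on the plus strand for Id4. Capitals mark matches to the E-box CANNTG, to which E proteins bind, or to the GC-rich SMAD element GGCGCC.
Id2: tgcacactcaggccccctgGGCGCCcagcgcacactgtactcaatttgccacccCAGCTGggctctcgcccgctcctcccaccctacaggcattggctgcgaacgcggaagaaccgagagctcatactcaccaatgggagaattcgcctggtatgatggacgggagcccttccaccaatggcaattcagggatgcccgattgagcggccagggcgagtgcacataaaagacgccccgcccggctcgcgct
Id3: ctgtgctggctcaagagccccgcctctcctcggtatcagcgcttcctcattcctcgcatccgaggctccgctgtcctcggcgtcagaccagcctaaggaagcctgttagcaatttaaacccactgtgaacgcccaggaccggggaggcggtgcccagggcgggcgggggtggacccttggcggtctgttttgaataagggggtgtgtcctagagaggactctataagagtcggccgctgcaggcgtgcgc
Id4: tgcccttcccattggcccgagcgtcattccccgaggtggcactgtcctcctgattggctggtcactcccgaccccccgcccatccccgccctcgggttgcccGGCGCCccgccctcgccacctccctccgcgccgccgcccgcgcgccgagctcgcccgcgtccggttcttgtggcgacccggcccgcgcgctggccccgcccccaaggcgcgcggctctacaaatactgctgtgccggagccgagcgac

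Id2 held 1 E-box, starting 196 bases before the start site, and 1 GC-rich SMAD element, starting 231 bases before it. Id4 held 1 GC-rich SMAD element, starting 148 bases before its start site. Id3 held neither. None of the 3 windows matched the STAT element TTCNNNGAA, the cyclic AMP response core TGACGT or the TATA box TATAAA. The GC box GGGCGG occurred 1 time in Id2, 2 times in Id3, where the matches overlap each other, and 5 times in Id4. Matches of different motifs did not overlap. Among 32851 windows of the same length, searched on both strands, 66.2% held the E-box, 9.59% the GC-rich SMAD element, 7.02% the STAT element, 6.47% the cyclic AMP response core, 32.7% the GC box and 12.4% the TATA box.

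The libraries held 5085357 to 9751201 counts, so that 3 counts correspond to 0.308 to 0.59 CPM, counts scaled to a common library total. All 4 members passed the filter on low counts, together with 13366 genes in all. At an adjusted p under 0.05 (edgeR quasi-likelihood test), 51.8% of tested genes differed between HFD and LFD, 26.6% between HFD + EC359 and HFD, and 58.3% between HFD + EC359 and LFD. LFD replicate 1 stood apart from its group, at a mean chi-square per gene of 3.1 and 2.54 against the other two LFD libraries, whereas the remaining replicate pairs lay between 1.36 and 1.57. The level of genes up to 45.8% in GC content, set against genes from 55.4% upward and given as a log2 difference, was -0.54 to -0.32 in LFD, 0.10 to 0.16 in HFD and 0.25 to 0.30 in HFD + EC359. This GC-linked shift and the diet cannot be told apart, so list counts and medians are given below also with the trend over GC content and length removed. For named genes this is done for the differences given below whose call changed on its removal. It is also done for called differences that changed direction or moved by over 1.5 times. Differences that passed in neither form are not always given in both, and some of them also changed in size or direction.

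Per kb of exon, Id1 was the most abundant member in the LFD tumors at 66.5 ± 8.69 CPM per kb (SD, n = 3), followed by Id3 at 46.2 ± 5.74. Id2 followed at 6.56 ± 0.266 CPM per kb and Id4 came last at 3.27 ± 0.480. In HFD tumors Id1 at 54.2 ± 2.17 and Id3 at 53.5 ± 1.02 CPM per kb did not differ beyond their spread. The order Id1, Id3, Id2, Id4 returned in HFD + EC359 tumors, where the levels were 45.4 ± 1.38, 35.8 ± 1.24, 9.70 ± 1.01 and 2.35 ± 0.302 CPM per kb. Id2 and Id4 were thus minor members throughout.

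**Figure D1:**
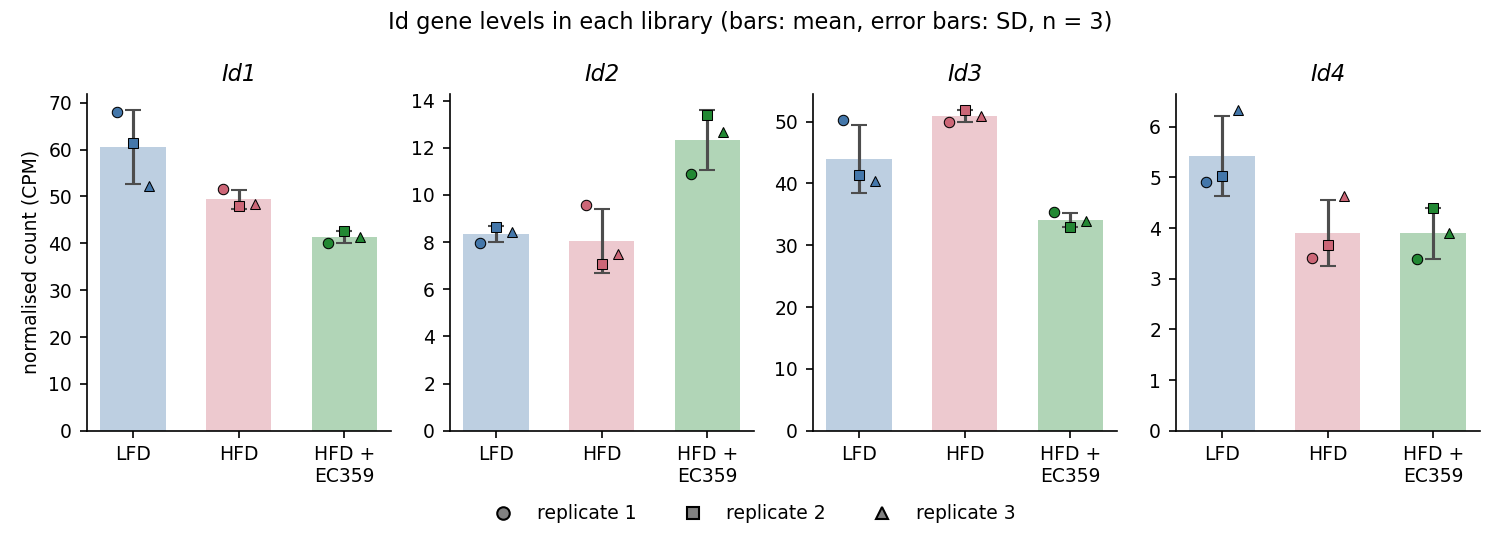
Normalised count (CPM, vertical axis) of Id1, Id2, Id3 and Id4 in each library, by group. Points are libraries, bars are group means and error bars are SD over 3 libraries. Id2 in the 3 EC359 libraries lies between 10.9 and 13.4 CPM, above the other 6 libraries, and Id3 in the same libraries lies between 33.0 and 35.4 CPM, below the other 6.

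Id1 read 68.1, 61.5 and 52.3 CPM in LFD replicates 1, 2 and 3. It read 51.6, 48.0 and 48.5 CPM in the HFD libraries and 40.1, 42.6 and 41.2 CPM in the HFD + EC359 libraries. Each library rested on 297 to 413 counts of Id1. The 3 groups did not overlap, with LFD highest and HFD + EC359 lowest, although the lowest LFD library and the highest HFD library lay close together. On the log2 scale, Id1 differed by -0.29 ± 0.080 (SE) between HFD and LFD, by -0.26 ± 0.079 between HFD + EC359 and HFD, and by -0.55 ± 0.080 between HFD + EC359 and LFD. The widest of these differences is a level 1.46-fold lower under EC359 on the high-fat diet than on the low-fat diet with vehicle. LFD replicate 1 was the highest library, and without it the difference between HFD and LFD was -0.21. With the GC and length trend removed, the difference between HFD and LFD was -0.12 ± 0.077 and these groups overlapped, whereas that between HFD + EC359 and HFD remained at -0.25 ± 0.076. The 1376 tested genes within 1 percentage point of the GC content of Id1 had a median log2 difference of -0.16 between HFD and LFD and -0.04 between HFD + EC359 and HFD.

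Id3 read 50.3, 41.4 and 40.3 CPM in the LFD libraries, 50.01, 51.9 and 50.9 CPM in HFD and 35.4, 33.0 and 34.0 CPM in HFD + EC359. Counts per library were 229 to 397. The EC359 libraries were lowest, and apart from every other library. HFD exceeded LFD replicates 2 and 3, while LFD replicate 1 lay within the HFD range. The log2 difference of Id3 was 0.22 ± 0.082 (SE) between HFD and LFD, -0.58 ± 0.079 between HFD + EC359 and HFD, and -0.36 ± 0.085 between HFD + EC359 and LFD. The level was thus 1.49-fold lower in EC359 tumors than in vehicle tumors of the same diet. Without LFD replicate 1 the difference between HFD and LFD was 0.32. Removal of the GC and length trend gave 0.40 ± 0.080 for HFD against LFD, with the groups then apart, -0.57 ± 0.077 for HFD + EC359 against HFD and -0.17 ± 0.083 for HFD + EC359 against LFD. Genes of the same GC content as Id3 had a median of -0.16 in the diet comparison, opposite in direction to Id3.

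Id2 read 7.97, 8.62 and 8.45 CPM in LFD and 9.57, 7.07 and 7.49 CPM in HFD. It read 10.9, 13.4 and 12.7 CPM in HFD + EC359. These values rested on 39 to 55 counts in LFD, 54 to 76 in HFD and 90 to 127 in HFD + EC359. The LFD and HFD libraries overlapped, and the EC359 libraries were all higher than both. The log2 difference of Id2 was -0.05 ± 0.171 (SE) between HFD and LFD, with a 95% interval of -0.39 to 0.28. Between HFD + EC359 and HFD it was 0.62 ± 0.144, a level 1.53-fold higher, and between HFD + EC359 and LFD 0.56 ± 0.154. With the GC and length trend removed the EC359 difference within the high-fat diet was 0.52 ± 0.144, whereas that against LFD was 0.22 ± 0.155. The diet difference was then -0.30 ± 0.172, with the LFD libraries all above the HFD libraries. The 850 genes of like GC content had medians of 0.28, 0.07 and 0.37 in the same order of comparisons.

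Id4 read 4.91, 5.02 and 6.34 CPM in LFD, 3.40, 3.66 and 4.63 CPM in HFD and 3.39, 4.395 and 3.89 CPM in HFD + EC359. With 24 to 39 counts per library, it was the least deeply measured member. The LFD libraries lay above the other 6, and HFD and HFD + EC359 overlapped. The log2 difference was -0.48 ± 0.227 (SE) between HFD and LFD and -0.47 ± 0.220 between HFD + EC359 and LFD, and changed little when the GC and length trend was removed (-0.51 ± 0.229 and -0.53 ± 0.221). Between HFD + EC359 and HFD it was 0.01 ± 0.221, with a 95% interval of -0.42 to 0.44.

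**Figure D2:**
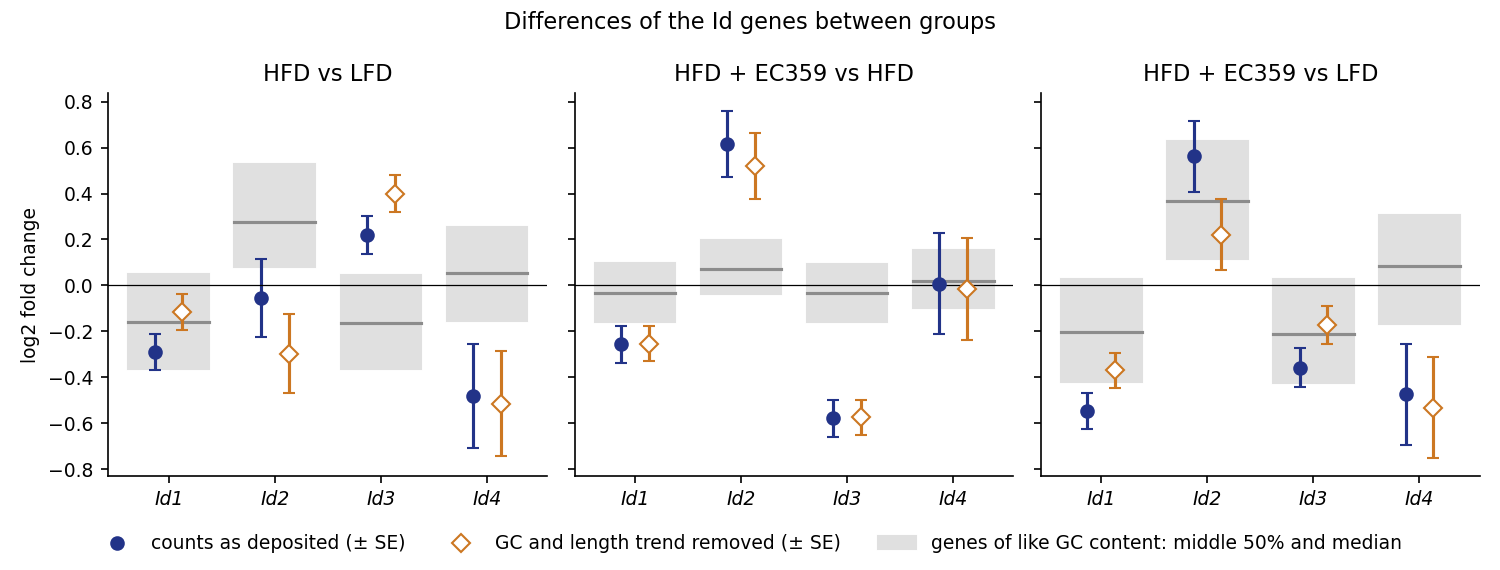
Log2 fold change (vertical axis) of each Id gene in the 3 comparisons, from the counts (filled circles) and after removal of the trend over GC content and length (open diamonds), with SE. Grey boxes span the middle 50% of tested genes within 1 percentage point of the same GC content, with their median as a line. Between HFD + EC359 and HFD, Id2 at 0.62 lies above its box and Id1 at -0.26 and Id3 at -0.58 lie below theirs. In the diet comparison Id1 at -0.29 lies within its box and Id3 at 0.22 above it.

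Counted by the threshold applied to all genes, 2 of the 4 members passed between HFD and LFD (1 higher, 1 lower), beside 51.8% of all tested genes, 26% higher and 25.8% lower. Between HFD + EC359 and HFD 3 passed (1 higher, 2 lower), beside 26.6%, 12.7% higher and 13.9% lower, and between HFD + EC359 and LFD 3 passed (1 higher, 2 lower), beside 58.3%, 29.2% higher and 29.1% lower. With the GC and length trend removed the counts were 1, 3 and 2, beside 43%, 24.9% and 49% of all genes. In the last of these comparisons the 2 were Id1 and Id4, since Id2 and Id3 no longer passed and Id4 then did. Groups did not overlap for 2, 3 and 4 members, beside 57.1%, 41.3% and 62.9% of all genes. No member passed the study's own threshold, a fold change over 2 with an adjusted p under 0.01, which 5.71%, 3.43% and 5.09% of genes passed. Since the members were picked with these differences in view, the counts describe them and carry no further weight. The comparisons share libraries in pairs, so they are not independent of each other.

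The proportions within the family differed between the groups. The ratio of Id3 to Id1, in CPM per kb, was 0.706, 0.644 and 0.737 in the LFD libraries, 0.926, 1.034 and 1.004 in the HFD libraries and 0.843, 0.741 and 0.787 in the HFD + EC359 libraries. The HFD libraries were apart from and above both other groups, and HFD + EC359 lay just above LFD. Id1 and Id3 have the same GC content and similar exon lengths, and the part of the GC-linked shift in this ratio was not tested. The ratio of Id2 to Id1 was 0.0839, 0.101 and 0.116 in LFD, 0.133, 0.105 and 0.111 in HFD and 0.195, 0.226 and 0.220 in HFD + EC359. LFD and HFD overlapped in this ratio, and the EC359 libraries stood above both. Of the summed Id level per kb, Id2 made up 5.41% ± 0.745 (SD, n = 3) in LFD, 5.43% ± 0.803 in HFD and 10.4% ± 0.938 in HFD + EC359. The share of Id1 was 54.2% ± 1.93, 46.6% ± 1.02 and 48.7% ± 0.732, and that of Id3 37.7% ± 1.46, 46.0% ± 1.64 and 38.4% ± 1.92.

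Summed over the 4 genes, the Id level was 137, 121 and 110 CPM per kb in LFD, 119, 115 and 115 in HFD and 91.8, 94.6 and 93.2 in HFD + EC359. LFD and HFD overlapped in the sum, and the EC359 libraries lay below both. Across the 9 libraries, the log2 CPM of Id2 and Id3 correlated at r = -0.88, Id1 and Id2 at -0.62, Id1 and Id3 at 0.60 and Id1 and Id4 at 0.52. These values describe 9 points that share their groups, depth and GC-linked shift.

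**Figure D3:**
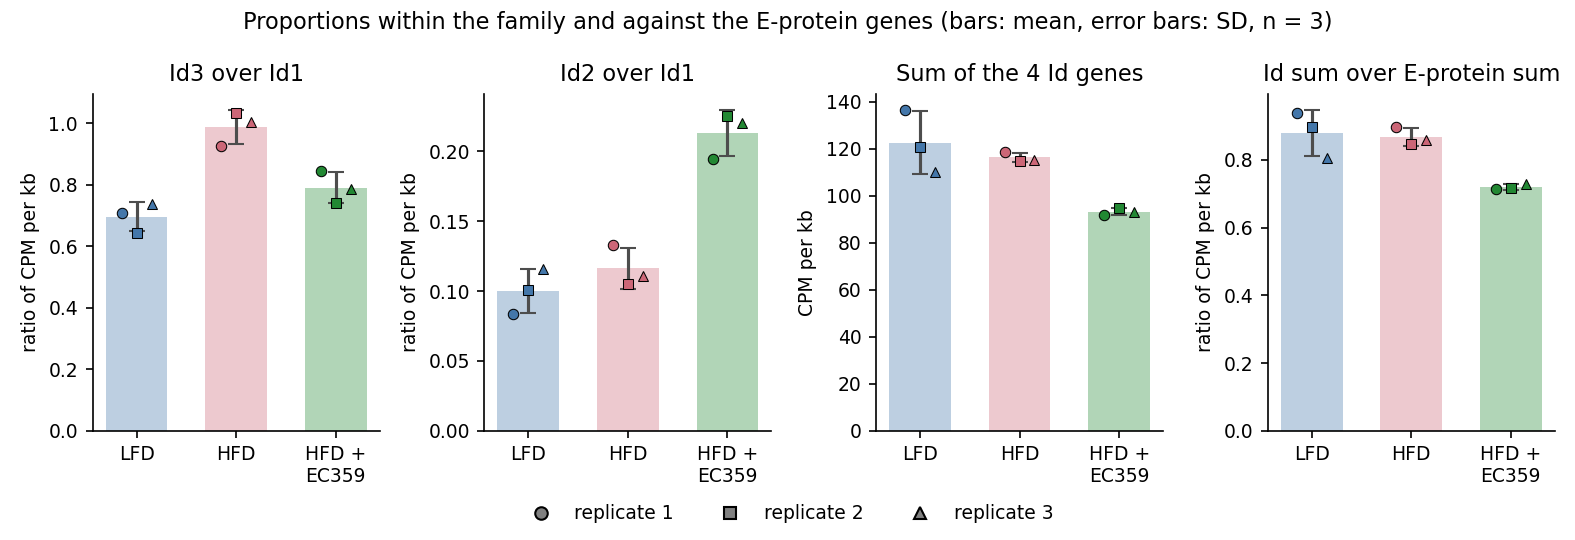
Ratios of Id3 to Id1 and of Id2 to Id1, the summed level of the 4 Id genes (CPM per kb), and the ratio of the Id sum to the sum of the E-protein genes Tcf3, Tcf4 and Tcf12, in each library. Points are libraries, bars are means and error bars are SD (n = 3). The ratio of Id3 to Id1 is highest in the HFD libraries at 0.926 to 1.03, and the ratio of the Id sum to the E-protein sum is lowest in the EC359 libraries at 0.713 to 0.729.

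RNA of the E proteins, the partners that Id proteins sequester, was at levels comparable to the Id sum, while protein was not measured. Their summed level was 138.9 ± 5.86 CPM per kb in LFD, 134.2 ± 1.82 in HFD and 129.5 ± 1.98 in HFD + EC359 (SD, n = 3). The ratio of the Id sum to the E-protein sum was 0.939, 0.897 and 0.806 in LFD, 0.897, 0.846 and 0.858 in HFD and 0.713, 0.718 and 0.729 in HFD + EC359. LFD and HFD overlapped in this ratio, and every EC359 library lay below both. The ratio was not taken with the GC and length trend removed. The E proteins themselves did not share a direction. Tcf3, which encodes the E2A proteins, fell by 0.35 ± 0.045 on the log2 scale (SE) between HFD and LFD (edgeR adjusted p = 7.81e-08) and by 0.19 ± 0.044 between HFD + EC359 and HFD (adjusted p = 0.00151). Tcf4, which encodes E2-2, rose by 0.48 ± 0.045 between HFD and LFD (adjusted p = 1.53e-10) and differed by 0.05 ± 0.042 between HFD + EC359 and HFD (adjusted p = 0.373). Tcf12, which encodes HEB, rose by 0.21 ± 0.051 in the diet comparison (adjusted p = 0.00102) and differed by 0.12 ± 0.047 in the EC359 comparison (adjusted p = 0.058, or 0.0272 without LFD replicate 1). Tcf3 has a GC content of 60.3%, Tcf4 41.4% and Tcf12 45.1%. With the GC and length trend removed, Tcf3 differed by -0.08 in both comparisons (adjusted p = 0.063 and 0.106) and Tcf12 by 0.02 and 0.07 (adjusted p = 0.73 and 0.317), whereas Tcf4 kept a difference of 0.12 between HFD and LFD (adjusted p = 0.00851).

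Of 48 listed E proteins and tissue-specific bHLH factors, 10 had counts enough to be tested. Between HFD and LFD 2 were higher and 3 lower, between HFD + EC359 and HFD 1 was higher and 2 lower, and between HFD + EC359 and LFD 3 were higher and 4 lower. The list's median log2 differences were -0.22, -0.14 and -0.12, beside 0.01 for all genes in each comparison. With the GC and length trend removed the medians were 0.03, -0.02 and 0.01, and the calls 2 higher and 0 lower, 1 and 1, and 3 and 2. Twist1, a bHLH factor of mesenchymal cells, fell from 64.6 ± 8.55 CPM in LFD to 50.5 ± 5.06 in HFD and 40.8 ± 0.834 in HFD + EC359 (SD, n = 3). Its log2 differences were -0.35 ± 0.083 between HFD and LFD (SE, adjusted p = 0.000797) and -0.31 ± 0.083 between HFD + EC359 and HFD (adjusted p = 0.00496), while removal of the GC and length trend gave -0.08 (adjusted p = 0.4) and -0.23 (adjusted p = 0.0217). Myog, a bHLH factor of skeletal muscle, had 1, 2 and 8 counts in LFD, 6, 4 and 1 in HFD and 15, 9 and 25 in HFD + EC359. It passed the threshold between HFD + EC359 and HFD (adjusted p = 0.00668), but not without HFD replicate 3 (adjusted p = 0.0565) or EC359 replicate 3 (adjusted p = 0.0773), and 3 counts are the floor of this measurement.

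**Figure D4:**
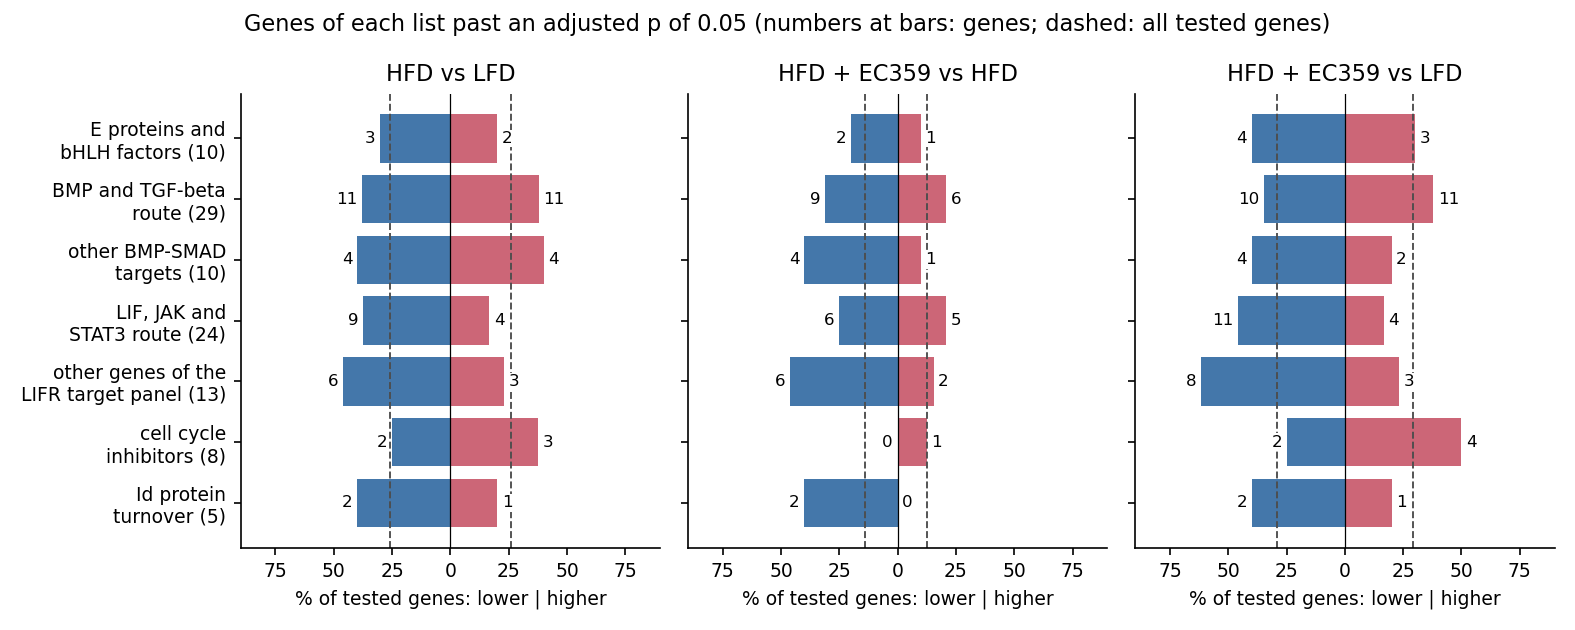
Share of tested genes (horizontal axis, %) that were lower (left, blue) or higher (right, red) at an adjusted p under 0.05 in each gene list, for the 3 comparisons. The number tested stands beside each list name, numbers at the bars count genes, and dashed lines mark the share among all tested genes. In the other genes of the LIFR target panel 6, 6 and 8 of 13 were lower.

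BMP and TGF-beta ligands, receptors, SMAD transducers and antagonists were taken as the route to the Id genes. Of 43 listed, 29 were tested. The diet comparison had 11 higher and 11 lower, and between HFD + EC359 and HFD 6 were higher and 9 lower. Between HFD + EC359 and LFD 11 were higher and 10 lower. Median log2 differences of the list were 0.04, -0.01 and -0.02. After removal of the trend they were 0.01, -0.05 and -0.02, with 11 higher and 9 lower, 6 and 8, and 9 and 7.

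Among the ligands, Bmp5 and Bmp7 were low and moved apart. Bmp5 had 0, 4 and 2 counts in LFD, 16, 23 and 21 in HFD and 24, 21 and 28 in HFD + EC359, so it was higher on the high-fat diet with or without EC359 (adjusted p = 2.09e-05 and 8.46e-06 against LFD). Bmp7, which also signals to SMAD1 and SMAD5, had 20, 28 and 22 counts in LFD, 10, 5 and 2 in HFD and 20, 20 and 31 in HFD + EC359. Its log2 difference was -2.45 ± 0.372 between HFD and LFD (SE, adjusted p = 1.58e-06) and 1.79 ± 0.379 between HFD + EC359 and HFD (adjusted p = 0.000468). Tgfb1, the best expressed ligand of the list at 199 to 231 CPM in the group means, fell by 0.15 ± 0.045 between HFD and LFD (adjusted p = 0.00706), but rose by 0.16 (adjusted p = 0.000815) once the GC and length trend was removed. Bmp4 and Bmp6 did not pass the filter on low counts.

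Of the receptors, Eng, an endothelial co-receptor of BMP9 and TGF-beta, rose from 183 ± 11.6 CPM in LFD to 239 ± 1.55 in HFD (SD, n = 3), a log2 difference of 0.38 ± 0.046 (SE, adjusted p = 2.92e-08), or 0.59 with the GC and length trend removed (adjusted p = 7.79e-13). It stood at 238 ± 11.0 CPM under EC359, a log2 difference of -0.01 ± 0.043 from HFD (adjusted p = 0.916). Tgfbr2, the type II receptor for TGF-beta, read 267 ± 9.14, 284 ± 11.1 and 282 ± 10.6 CPM and passed the threshold in no comparison, although it did so between HFD and LFD without LFD replicate 1 (adjusted p = 0.0318) and after removal of the GC and length trend (0.10, adjusted p = 0.0475). Further receptors and the transducers of the BMP branch were examined after their values had been seen, and they did not share a direction. Acvrl1, the endothelial receptor for BMP9, rose by 0.92 ± 0.107 between HFD and LFD (adjusted p = 1.14e-08) and fell by 0.52 ± 0.092 between HFD + EC359 and HFD (adjusted p = 5.34e-05), and both calls held with the GC and length trend removed. Bmpr2, the type II receptor for BMPs, rose in both steps, by 0.58 ± 0.072 (adjusted p = 3.83e-08) and 0.26 ± 0.061 (adjusted p = 0.00146). Bmpr1a, a type I receptor, rose by 0.31 ± 0.049 between HFD and LFD (adjusted p = 2.31e-06), but stood at -0.05 with the trend removed (adjusted p = 0.46). Its difference between HFD + EC359 and HFD was 0.11 ± 0.044 (adjusted p = 0.0567, or 0.03 without LFD replicate 1), and 0.02 with the trend removed (adjusted p = 0.765). Acvr1, another type I receptor, fell by 0.20 ± 0.056 (adjusted p = 0.00409) and by 0.15 ± 0.054 (adjusted p = 0.0428), the latter lost in 5 of the 6 fits that left out a library of these groups. Smad1, a SMAD activated by BMP receptors, differed by 0.04 ± 0.061 between HFD and LFD (adjusted p = 0.569) and fell by 0.21 ± 0.057 between HFD + EC359 and HFD (adjusted p = 0.00648), a call lost without HFD replicate 3 (adjusted p = 0.053). Smad5, which acts beside Smad1, had group means of 22.7, 23.2 and 22.5 CPM per kb in LFD, HFD and HFD + EC359. Those of Smad1 were higher, at 27.3, 28.2 and 24.4 CPM per kb. Smad5 differed by 0.02 ± 0.048 (adjusted p = 0.693) and -0.04 ± 0.045 (adjusted p = 0.536), and by -0.12 in the diet comparison with the trend removed (adjusted p = 0.0252). Smad4, the common partner of both SMAD branches, fell by 0.21 ± 0.050 (adjusted p = 0.000663) and again by 0.20 ± 0.049 (adjusted p = 0.002).

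Other genes known as BMP-SMAD targets gave a reading of the route that did not use the Id genes. Of 15 listed, 10 were tested. Between HFD and LFD 4 were higher and 4 lower, between HFD + EC359 and HFD 1 was higher and 4 lower, and between HFD + EC359 and LFD 2 were higher and 4 lower, with median log2 differences of -0.06, -0.26 and -0.37. Removal of the GC and length trend gave medians of 0.18, -0.21 and -0.03, with 3 higher and 3 lower, 1 and 3, and 2 and 2. Noggin (Nog), a secreted BMP antagonist, was counted both here and among the route genes. The count for HFD + EC359 against HFD, 5 genes in all, was 2 without HFD replicate 2 or 3, 1 without EC359 replicate 1 and 3 without EC359 replicate 3. Smad7, an inhibitory SMAD induced by TGF-beta and BMPs, read 211 ± 24.0 CPM in LFD, 187 ± 3.85 in HFD and 141 ± 5.12 in HFD + EC359 (SD, n = 3). It fell by 0.41 ± 0.053 between HFD + EC359 and HFD (SE, adjusted p = 2.62e-07), and by 0.35 with the GC and length trend removed (adjusted p = 1.16e-07). In the diet comparison its difference of -0.17 ± 0.054 (adjusted p = 0.00898) was -0.08 without LFD replicate 1 (adjusted p = 0.145) and 0.03 with the trend removed (adjusted p = 0.579). Smad6, the inhibitory SMAD of the BMP branch, read 31.5 ± 2.02, 27.4 ± 1.16 and 22.3 ± 1.72 CPM. It fell by 0.30 ± 0.093 between HFD + EC359 and HFD (adjusted p = 0.0173), a call lost with the trend removed (-0.18, adjusted p = 0.149) and in 4 of the 6 fits that left out a library of these groups. Gata3, a luminal transcription factor, rose by 0.44 ± 0.041 between HFD and LFD (adjusted p = 9.47e-11) and fell by 0.13 ± 0.039 between HFD + EC359 and HFD (adjusted p = 0.0131), the latter lost without HFD replicate 2 (adjusted p = 0.0585) or EC359 replicate 1 (adjusted p = 0.102).

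The remaining named targets were near the floor. Tmem100, an endothelial BMP9 target, had 6, 0 and 2 counts in LFD, 17, 12 and 15 in HFD and 13, 7 and 10 in HFD + EC359, and was higher in HFD than in LFD (adjusted p = 0.00366). Msx1, a homeobox target of BMPs, had 2, 12 and 9 counts in LFD, 10, 8 and 14 in HFD and 0, 6 and 6 in HFD + EC359. Its lower level between HFD + EC359 and HFD (adjusted p = 0.0273) was lost without the EC359 library at 0, replicate 1 (adjusted p = 0.142).

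The LIF, JAK and STAT3 route is the one EC359 is meant to block at its receptor. Of 25 listed genes 24 were tested. On the high-fat diet 4 were higher and 9 lower than in LFD, between HFD + EC359 and HFD 5 were higher and 6 lower, and between HFD + EC359 and LFD 4 were higher and 11 lower. Median log2 differences were -0.11, 0.03 and -0.11. After the trend was removed they were -0.03, 0.06 and -0.03, with 4 higher and 5 lower, 7 and 6, and 7 and 9. The count for HFD + EC359 against HFD, 11 genes, was 7 without HFD replicate 1 and 6 without HFD replicate 2.

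The ligand Lif read 16.8 ± 3.13 CPM in LFD, 18.2 ± 1.77 in HFD and 11.0 ± 1.25 in HFD + EC359 (SD, n = 3). It differed by 0.14 ± 0.131 between HFD and LFD (SE, adjusted p = 0.381) and fell by 0.74 ± 0.128 between HFD + EC359 and HFD (adjusted p = 3.7e-05), and by 0.72 with the GC and length trend removed (adjusted p = 2.29e-05). Lifr itself, the receptor, named here outside the rule because it is the target of EC359, rose by 0.38 ± 0.055 between HFD + EC359 and HFD (adjusted p = 2.08e-06). Cntfr, the receptor chain for ciliary neurotrophic factor, had 13, 13 and 10 counts in LFD, 2 in each HFD library and 7, 2 and 3 in HFD + EC359. Depth-scaled, its summed counts in HFD were 0.123 times those in LFD, with an exact 95% interval of 0.0424 to 0.295 that covers counting error only.

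Among the signal transducers, Stat3 read 357 ± 7.46, 344 ± 11.6 and 314 ± 5.75 CPM in LFD, HFD and HFD + EC359. It fell by 0.13 ± 0.037 between HFD + EC359 and HFD (SE, adjusted p = 0.00742), a call not reached without HFD replicate 2 (adjusted p = 0.0667). Jak2 fell by 0.16 ± 0.037 between HFD and LFD (adjusted p = 0.000518), or by 0.38 with the GC and length trend removed (adjusted p = 1.49e-11), and by 0.20 ± 0.036 between HFD + EC359 and HFD (adjusted p = 9.33e-05). Socs3, the feedback inhibitor induced by STAT3, fell by 0.40 ± 0.052 (adjusted p = 9.82e-08) and by 0.34 ± 0.052 (adjusted p = 4.56e-06) in the same comparisons, and by 0.15 and 0.26 after removal of the GC and length trend (adjusted p = 0.00771 and 2.6e-05).

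The other 13 genes of the LIFR target panel were all tested. Between HFD and LFD 3 were higher and 6 lower, between HFD + EC359 and HFD 2 were higher and 6 lower, and between HFD + EC359 and LFD 3 were higher and 8 lower. The medians were -0.08, -0.17 and -0.31. Once the trend was removed they were -0.06, -0.17 and -0.28, and 2 were higher and 4 lower, 2 and 7, and 2 and 8. The list shared members with the preceding one, Lifr among them. Junb, an AP-1 subunit, fell by 0.42 ± 0.041 between HFD + EC359 and HFD (SE, adjusted p = 9.05e-10), as did Timp1, a metalloproteinase inhibitor, by 0.55 ± 0.077 (adjusted p = 1.15e-06). The survival genes Akt1, Pim1 and Mcl1 fell in both steps, with log2 differences between HFD and LFD of -0.46 ± 0.036, -0.50 ± 0.061 and -0.48 ± 0.048 (adjusted p = 1.9e-12, 3.23e-08 and 3.63e-10). Between HFD + EC359 and HFD they were -0.20 ± 0.036, -0.25 ± 0.062 and -0.17 ± 0.048 (adjusted p = 7.16e-05, 0.00208 and 0.00829), the last lost without HFD replicate 1 (adjusted p = 0.077) or EC359 replicate 3 (adjusted p = 0.0568). With the trend removed the differences of Akt1 were -0.20 and -0.10 (adjusted p = 1.05e-06 and 0.00785) and that of Pim1 between HFD and LFD was -0.26 (adjusted p = 0.000185). Set beside these genes, the panel's own Id members went in opposite directions under EC359, with Id1 at -0.26 and Id2 at 0.62.

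Cyclin-dependent kinase inhibitors and pocket proteins are known targets or partners through which Id proteins act on the cell cycle. Of 10 listed genes 8 were tested. Between HFD and LFD 3 were higher and 2 lower, between HFD + EC359 and HFD 1 was higher and 0 lower, and between HFD + EC359 and LFD 4 were higher and 2 lower, with medians of 0.12, 0.03 and 0.14. The balance turned when the GC and length trend was removed, to 1 higher and 4 lower, 0 and 0, and 1 and 3, with medians of -0.11, -0.05 and -0.08. Cdkn1a, the p21 gene that E proteins activate, read 65.8 ± 5.89 CPM in LFD, 44.1 ± 2.76 in HFD and 40.1 ± 0.641 in HFD + EC359 (SD, n = 3). It fell by 0.57 ± 0.077 between HFD and LFD (SE, adjusted p = 1.79e-07) and differed by -0.14 ± 0.077 between HFD + EC359 and HFD (adjusted p = 0.2). Cdkn1b, the p27 gene, rose by 0.16 ± 0.053 between HFD and LFD (adjusted p = 0.0133) and Rb1, the retinoblastoma gene, by 0.38 ± 0.093 (adjusted p = 0.00103), but neither passed with the GC and length trend removed (0.01 and 0.04, adjusted p = 0.894 and 0.745). Cdkn1b was also lost without LFD replicate 3 (adjusted p = 0.0625) or HFD replicate 2 (adjusted p = 0.0501). Rb1 also gave the 1 gene counted between HFD + EC359 and HFD, at 0.22 ± 0.081 (adjusted p = 0.037), which passed neither with the trend removed (adjusted p = 0.246) nor in 5 of the 6 fits that left out a library of these groups. Cdkn2c, the p18 gene, differed by 0.17 ± 0.078 between HFD and LFD (adjusted p = 0.071, or 0.0304 without LFD replicate 2). Cdkn1c, the p57 gene, had 2, 6 and 1 counts in LFD, 16, 14 and 14 in HFD and 13, 6 and 17 in HFD + EC359, and was higher in HFD than in LFD (adjusted p = 0.00336). Cdkn2a and Cdkn2b did not pass the filter, with at most 5 and 12 counts in a library.

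Id proteins are short-lived, and 5 genes known to act on their stability were all tested. Of these, between HFD and LFD 1 was higher and 2 lower, between HFD + EC359 and HFD 0 were higher and 2 lower, and between HFD + EC359 and LFD 1 was higher and 2 lower, with medians of 0.01, -0.10 and -0.09. With the trend removed there were 0 higher and 1 lower, 0 and 1, and 1 and 2, with medians of -0.05, -0.06 and -0.05. Usp1, a deubiquitinase that stabilizes Id1, Id2 and Id3, read 99.5 ± 4.28 CPM in LFD, 86.6 ± 3.12 in HFD and 75.4 ± 3.45 in HFD + EC359 (SD, n = 3). It fell by 0.20 ± 0.056 between HFD and LFD (SE, adjusted p = 0.00338) and by 0.20 ± 0.054 between HFD + EC359 and HFD (adjusted p = 0.0047), and by 0.40 and 0.26 after removal of the GC and length trend (adjusted p = 1.67e-07 and 0.00025). Fzr1, the adaptor that directs Id2 to the anaphase-promoting complex, fell by 0.17 ± 0.055 and by 0.15 ± 0.053 (adjusted p = 0.0117 and 0.0285). The first call was lost without LFD replicate 3 or HFD replicate 3 (adjusted p = 0.0665 and 0.0628), the second in 4 of the 6 fits that left out a library of these groups, at adjusted p of up to 0.167. With the trend removed the differences were 0.10 and -0.06 (adjusted p = 0.12 and 0.443). Cops5, a COP9 signalosome subunit, differed by 0.09 ± 0.088 and 0.07 ± 0.081 (adjusted p = 0.425 and 0.594). The turnover count between HFD and LFD was 1 without HFD replicate 3, and the count of 2 between HFD + EC359 and HFD was 1 when replicate 1 or 2 of either group was left out.

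The tested genes whose log2 CPM most resembled each member over the 9 libraries were found by Pearson's r, which describes likeness among libraries that share group, depth and GC-linked shift. For Id1 these were Hp1bp3 (r = 0.990), Hcfc1r1 (0.988) and Arhgdia (0.986). Their group means fell in the same order as those of Id1, Arhgdia from 654 CPM in LFD to 597 in HFD and 549 in HFD + EC359. With the GC and length trend removed, Arhgdia and Hcfc1r1 differed by 0.05 and 0.02 between HFD and LFD (adjusted p = 0.204 and 0.858). The genes most like Id3 were Itpk1 (0.984), Maged1 (0.984) and Cd248 (0.980). Cd248, or endosialin, a marker of tumor pericytes and fibroblasts, read 24.7 ± 3.07, 34.0 ± 1.09 and 16.8 ± 1.86 CPM in LFD, HFD and HFD + EC359 (SD, n = 3), the same order of groups as Id3 with a wider range. Its difference between HFD + EC359 and LFD did not pass with the trend removed (-0.15, adjusted p = 0.26). For Id2 they were Nsun4 (0.957), Pogk (0.949) and Pld3 (0.938). Pld3, a lysosomal nuclease, read 50.9 ± 1.15, 50.8 ± 0.393 and 62.0 ± 3.25 CPM. With the GC and length trend removed Pld3 was higher in HFD than in LFD by 0.23 (adjusted p = 0.00771), whereas Id2 then differed by -0.30. For Id4 they were Gcnt4 (0.955), Zfp91 (0.953) and Adap1 (0.944), of which Gcnt4 had 6 to 21 counts per library.

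Marker lists of the cell types that such tumors can hold differed between the same groups. Summed over the list, endothelial markers read 322 to 334 CPM in LFD, 541 to 570 in HFD and 426 to 445 in HFD + EC359, with 10 of 10 higher between HFD and LFD and 8 of 10 lower between HFD + EC359 and HFD. Fibroblast markers, led by collagens, read 7747 to 9215, 13490 to 14240 and 3976 to 4081 CPM, with 8 of 8 higher in the diet comparison and 4 lower and 1 higher in the EC359 comparison. The 4 lower were Col1a1, Col1a2, Col3a1 and Lum, and the collagens made up most of the sum. Pdgfra was the 1 higher, at 374 CPM in HFD and 475 in HFD + EC359, while Pdgfrb, Dcn and Fap did not pass. Pericyte and smooth muscle markers read 210 to 217, 270 to 278 and 212 to 213 CPM, with 4 of 6 higher and 1 lower, then 0 higher and 4 lower. All these lists were highest in HFD, as Id3 was, and so was the skeletal muscle list. Between HFD + EC359 and LFD, Id3 was lower, as was the sum of the fibroblast list. By gene, 4 fibroblast markers were higher in that comparison (Dcn, Fap, Pdgfra and Pdgfrb). The 3 lower were the collagens Col1a1, Col1a2 and Col3a1, and the list's median log2 difference was 0.10. The endothelial sum was higher between HFD + EC359 and LFD, but by gene 4 markers were higher (Pecam1, Cdh5, Kdr and Emcn). Tie1 was the 1 lower, and 5 did not pass. The pericyte and smooth muscle sums overlapped, with 2 markers higher and 3 lower. Macrophage markers read 1447 to 1477, 1401 to 1419 and 1788 to 1812 CPM, with 4 higher and 1 lower (Mrc1, at 567 ± 24.8 and 443 ± 7.18 CPM) of 7 between HFD and LFD, and 7 of 7 higher between HFD + EC359 and HFD. Id2 was higher between HFD + EC359 and HFD too, as were neutrophil and epidermal markers. The part of these cell types in the Id differences was not tested.

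Epithelial markers followed a further order. The tumor epithelium list read 1121 to 1141, 707 to 715 and 766 to 796 CPM, with 5 of 5 tested markers lower between HFD and LFD and 4 of 5 higher between HFD + EC359 and HFD. The sum rested on Krt8 and Krt18, while Epcam and Cdh1 were low and Krt19, Krt7, Cldn3 and Cldn7 did not pass the filter. Epidermal markers, led by Krt14, read 1222 to 1398 CPM in LFD, 198 to 211 in HFD and 601 to 613 in HFD + EC359, with 9 of 11 lower and then 10 of 11 higher. Neutrophil markers read 97.9 to 118.5, 124 to 135 and 158 to 164 CPM, with 2 of 4 higher and then 4 of 4 higher. Skeletal muscle markers read 88.3 to 95.1, 109 to 121 and 64.8 to 69.3 CPM, so their sum was lowest where Myog was highest. Between HFD and LFD 3 of 5 were higher, and between HFD + EC359 and HFD 3 of 5 were lower. The 3 lower were Ckm, Acta1 and Myh4, the last at 50.5 CPM in HFD and 18.2 in HFD + EC359. Tnnt3 and Mylpf did not pass between HFD + EC359 and HFD. Adipocyte markers were low but apart, at 9.68 to 12.9 CPM in LFD, 26.6 to 29.6 in HFD and 25.8 to 29.3 in HFD + EC359, with Fabp4 and Cfd the 2 of 4 tested that were higher between HFD and LFD, while Adipoq, Lep and Retn did not pass the filter. T and NK cell markers read 13.01 to 16.7, 11.8 to 12.8 and 17.2 to 20.9 CPM, with 1 of 4 tested lower and then 1 higher. B cell markers, at 0.599 to 2.04 CPM over all libraries, were not tested. No marker of any list was at 0 in every library. None of the 4 Id genes is known from one of these cell types alone, and the share of each type in the Id level was not tested.

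**Figure D5:**
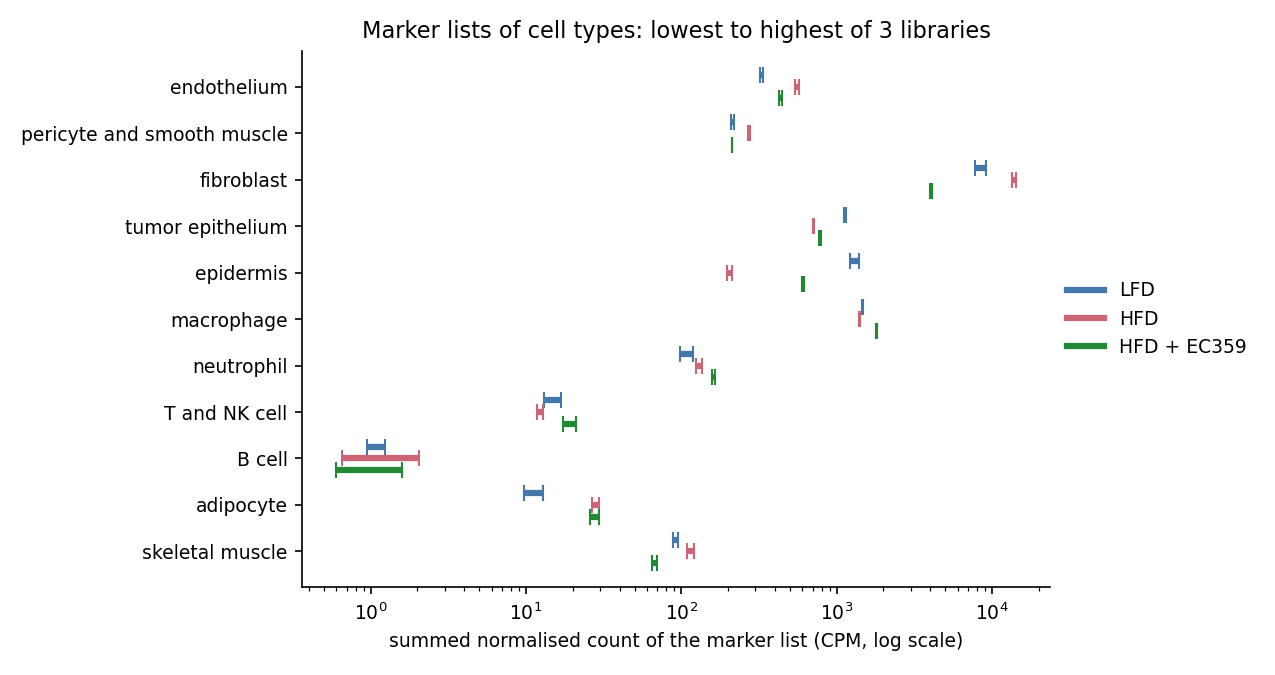
Summed normalised count (CPM, horizontal log axis) of each cell type's marker list, drawn from the lowest to the highest of 3 libraries in each group. Endothelial markers run from 541 to 570 CPM in HFD against 322 to 334 in LFD, and fibroblast markers from 3976 to 4081 CPM in HFD + EC359 against 13490 to 14240 in HFD. The fibroblast sum is mostly collagen counts.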

How the data were processed

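Tumor RNA was sequenced as paired-end, poly(A)-selected stranded libraries, and the authors deposited 1 table per library with counts of read pairs per gene. Per the file headers, featureCounts 1.5.0-p1 counted read pairs over UCSC mm9 exons with strand setting 2 and a minimum mapping quality of 2, and divided multi-mapping and overlapping pairs, so the values are estimated counts that need not be whole. The submitters' processing notes name HISAT2 2.1.0, whereas the study's methods name TopHat2, HTSeq and DESeq, and it was not settled which aligner made the deposited counts. Fractional values occurred in 1.19% to 3.55% of genes per library. Among the members, 1 library of Id3 had one. Libraries were grouped by their titles, and columns not mapped to a library numbered 0.

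Counts were rounded and fitted for all 9 libraries together with edgeR 4.0.16 (R 4.3.3, TMM scaling, quasi-likelihood test, filterByExpr with a minimum count of 10, Benjamini-Hochberg adjustment over 13366 genes). CPM were scaled by TMM. SE are of the fitted log2 differences, 95% intervals cover library spread as modelled, and the common coefficient of variation was 3.63%. Because labels do not tie replicates to separate animals, p-values measure only the spread between these libraries, which may be technical. The trend over exon GC content and length was removed per library with smoothed curves (lowess in R), which entered the edgeR fit. Genes with like GC content lay within 1 percentage point. DESeq2 1.42.0, other scalings and filters, rounding down, a replicate block, the 6 libraries of a comparison alone, and leaving out each library were tried as alternatives. On simulated counts, 98% of genes changed 2-fold and 84% of those changed 1.5-fold were recovered, and 13 of 13026 unchanged genes were called. These values are for HFD against LFD, the comparison that was simulated. Changes were planted only in genes above a minimum mean level, with the spread taken from this same fit. The rates therefore do not cover genes as low as Bmp5, Bmp7 or Myog. Tables were summarised with Python 3.11.15 and pandas 2.3.3.

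The members and the gene lists were chosen with earlier results of these data known. Genes were named by rule: the members, the E proteins, in each list the 3 tested genes with the highest level per length and the called gene with the largest change in each comparison, and the 3 genes with the highest r to each member. Exceptions are named as such. Bmp4, Bmp6, Cdkn2a, Cdkn2b and the markers were named for their known roles.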

Additional observations from a re-analysis of the deposited data

How the results depend on the processing

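Depth limits Id4 and Id2 most, at 24 to 39 and 39 to 127 counts per library. For the members, the alternatives that moved a value by more than the replicate spread were those with the GC and length trend removed, at -0.12 and -0.37 for Id1 (HFD against LFD, HFD + EC359 against LFD), -0.30 and 0.22 for Id2, and 0.40 and -0.17 for Id3, in the same order. This trend differs between groups and cannot be told apart from diet. With it removed, the counts of called list genes were 2 for E proteins and bHLH factors (HFD against LFD), 0 for cell cycle inhibitors (HFD + EC359 against HFD), and 1 and 1 for turnover genes in these comparisons. Directions reversed with it removed for Arhgdia (0.048), Fzr1 (0.10), Hcfc1r1 (0.022), Smad7 (0.034), Tgfb1 (0.16), Lifr (-0.046) and Bmpr1a (-0.046) between HFD and LFD, and for Fzr1 (0.042), Tgfb1 (0.23) and Bmpr1a (-0.024) between HFD + EC359 and LFD. At a fold over 2 and an adjusted p under 0.01, 763 of all genes passed for diet, 459 for EC359 within the high-fat diet and 680 for EC359 against LFD, and in the same order 0, 1 and 0 E proteins and bHLH factors, 4, 2 and 1 BMP and TGF-beta route genes, 4, 0 and 0 other BMP-SMAD targets, 1, 0 and 1 LIF route genes, 0, 0 and 0 other panel genes, 1, 0 and 0 cell cycle inhibitors and 0, 0 and 0 turnover genes. Under a minimum of 10 counts per library, other BMP-SMAD targets numbered 4 between HFD and LFD and 3 between HFD + EC359 and HFD, which the stricter filter brings with it by testing fewer genes. For HFD + EC359 against HFD, DESeq2 called 2 BMP-SMAD targets, 7 LIF route genes, 0 cell cycle inhibitors and 1 turnover gene. In this comparison the 6 libraries alone gave 3 BMP-SMAD targets, and library totals without TMM gave 1 turnover gene. The cause was not tested for these settings. Leaving out 1 library gave 1 to 6 BMP-SMAD targets, 6 to 12 LIF route genes, 0 to 1 cell cycle inhibitors (0 without any of the HFD libraries or EC359 replicate 2 or 3) and 1 to 2 turnover genes between HFD + EC359 and HFD, and 1 to 3 turnover genes between HFD and LFD. Without LFD replicate 1, the called counts between HFD and LFD were 4 E proteins and bHLH factors, 21 BMP and TGF-beta route genes, 7 BMP-SMAD targets, 12 LIF route genes, 8 other panel genes, 5 cell cycle inhibitors and 2 turnover genes. No value of a member moved beyond the replicate spread in any fit that left out a library. Replicate numbers did not pair the libraries, since deviations from group means correlated at -0.0297 to 0.017 for equal and -0.0235 to 0.0272 for unequal numbers. With the replicate number as a block, 6944, 3550 and 7773 genes were called and Id3 differed by 0.22, -0.58 and -0.36.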
